A study of Homo sapiens with 26 samples.

Results

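The genes that copy and remove DNA methylation were examined where ZBTB24 and DNMT3B had been mapped and perturbed. The set was chosen by name and holds 8 of the 26313 gene names in the assembled annotation. DNMT1 and UHRF1 act in maintenance, and UHRF2 is related to UHRF1. DNMT3A acts in de novo methylation, and TET1, TET2, TET3 and TDG act in removal. All cells were HCT116, an established colorectal cancer line. RNA-seq covered 3 libraries with a hairpin against ZBTB24 (shZBTB24) and 3 with a hairpin that has no target (shNT), 2 FLAG-ZBTB24 and 2 FLAG-only libraries, and 1 library each of a DNMT3B knockout line (3BKO) and of wild-type cells without tag or hairpin. FLAG ChIP-seq had 7 libraries, 3 of FLAG-ZBTB24 and 2 each of FLAG-DNMT3B and of FLAG alone, each with an input library. The hairpin and FLAG lines were made with lentivirus and kept under puromycin, and the FLAG lines were single-cell clones, so a difference between clones and an effect of the transgene cannot be told apart. The FLAG factors came from lentiviral copies in HCT116 cells, and no label states that the cells' own genes were removed.

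DNA methylation in mammals sits on the cytosine of CpG pairs and is written by DNMT3A and DNMT3B. After each round of replication the mark has to be copied to the new strand. UHRF1 recognises CpG pairs methylated on the old strand only and recruits DNMT1, which methylates the new strand, while the related UHRF2 also recognises modified CpG pairs. The TET enzymes oxidise 5-methylcytosine stepwise, and TDG, a thymine DNA glycosylase, cuts out the most oxidised forms, which base excision repair then replaces with plain cytosine. ZBTB24, a zinc finger protein, and DNMT3B are both mutated in ICF syndrome, an immunodeficiency with loss of methylation at pericentromeric repeats.

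Each expression table gives every group a single pooled FPKM (a level scaled to transcript length and library size) and only part of the loci, so no error between libraries and no depth can be given. The knockdown table listed 1965 loci with an absolute log2 fold change of at least 0.50 and a p of at most 0.0549, and the FLAG-ZBTB24 table listed 1754 loci with the same fold limit and a p of up to 0.839. The knockout table listed 2243 loci under the knockout's label, with a log2 fold change of at least 1. For a gene missing from a table, a small change, removal by another filter and lack of a test cannot be told apart. Separate cultures are not stated for the hairpin libraries, so the p-values cover the spread among these libraries alone, and that spread may be technical. ZBTB24, the knockdown's target, was not in its table, and in the FLAG-ZBTB24 table the locus that it shares with MICAL1 rose from 17.8 to 155 FPKM (q = 0.0192 in the authors' deposited table). Rows with the knockout's own label did not include DNMT3B either, so neither target could be checked under the labels of the samples given. Of 10 epithelial markers, EPCAM, KRT8 and KRT18 were at 179, 839 and 739 FPKM in wild-type cells in the authors' deposited table. These values came from rows labelled DNMT3BKOshZB, which matches no sample given, and CDX2 and CDH1 were also listed there. KRT20 was low, at 0.558 FPKM in wild-type cells and 0.455 FPKM in the FLAG-only libraries in the authors' deposited tables. KRT19, CDX1, VIL1 and LGR5 were in none of the tables. Of 5 markers of other cell types, only VIM was listed.

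TDG was the single member that passed the threshold of a q under 0.05 in any comparison, and it rose after ZBTB24 knockdown. In the authors' deposited table TDG stood at 6.36 FPKM in the shNT libraries and at 11.8 FPKM in the shZBTB24 libraries, each a pooled value of 3 libraries. The log2 fold change was 0.90, a 1.86-fold rise (p = 0.0009, q = 0.0361 in the authors' deposited table, 3 against 3 libraries). TDG was the 1 member listed, and of the 1965 listed loci 12.2% were called as rises and 9.82% as falls. That background counts only loci that had passed the table's limits, so it cannot be set against 1 of 8 genes. By size the TDG change was number 185 of the 240 called rises, and its log2 fold change stood beside a median of 0.79 over the 1081 listed loci with higher values. RefSeq also names a pseudogene of this gene, TDGP1, and it is not known from these sources how reads shared with it were counted, so the TDG value is uncertain in that respect. Pseudogenes of DNMT3A, UHRF2 and TET1 are named in RefSeq as well. The other 7 members, including DNMT1 and UHRF1, were not listed for the knockdown. Epithelial markers also changed in that comparison: in the authors' deposited table CDX2, an intestinal transcription factor, rose from 6.90 to 18.8 FPKM and CDH1, which encodes E-cadherin, fell from 46.3 to 23.2 FPKM (q = 0.00493 for each). These 2 were the listed markers among 15, and their part in the TDG result was not tested.

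With added FLAG-ZBTB24, none of the 8 genes was listed. Of all loci listed there, 0.57% passed a q under 0.05 (0.228% as rises and 0.342% as falls) and 9.92% an unadjusted p under 0.05. No value of a member can therefore be given for the FLAG-ZBTB24 or FLAG-only lines.

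In the DNMT3B knockout library, the other de novo methyltransferase gene had a higher value. DNMT3A was at 3.25 FPKM in the wild-type library and at 8.47 FPKM in the knockout library in the authors' deposited table, a 2.61-fold difference (log2 fold change 1.38). It did not pass the threshold (q = 0.722 in the authors' deposited table), and with 1 library per group that q compares these libraries and not the conditions. Of the 2243 loci listed under the knockout's label, all of them higher, 0.312% passed, 9.36% had an unadjusted p under 0.05 and 100% were past a fold of 2, the table's own limit, and DNMT3A was number 1684 by size. The median log2 fold change of those loci was 2.12, so the DNMT3A difference lay in the lower part of the listed range. In the same 2 libraries VIM, a mesenchymal marker, had 3.80 and 629 FPKM (the authors' deposited table), the only one of 5 non-epithelial markers listed, and its part in the DNMT3A value was not tested.

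DNMT1, the maintenance enzyme, appeared once in the deposited tables, in a row that matches no sample given here. Under the label DNMT3BKOshZB the authors' deposited table had DNMT1 at 57.4 FPKM in wild type and at 19.6 FPKM in the other group, a 2.93-fold lower value (log2 fold change -1.55, p = 0.0408, q = 0.378). All 1112 rows with that label were lower than wild type and all 2243 rows labelled as the knockout were higher. The median log2 fold change of the rows labelled DNMT3BKOshZB was -1.48, close to the DNMT1 value, and 0.36% of them passed a q under 0.05, 9.98% an unadjusted p under 0.05, DNMT1 among them, and 100% a fold of 2. DNMT3B, the gene removed in the knockout line, was listed under the same label, and its wild-type value of 21.1 FPKM stood against 6.46 FPKM in the authors' deposited table (q = 0.676). Of 195 p-values that occurred under both labels, 194 had an equal q under both. Whether the row belongs to the knockout library or to other cells is not settled by these values, so no direction is drawn for DNMT1. Under the same label 5 of the 10 epithelial markers were listed, all lower, among them CDH1 with 27.3 and 6.10 FPKM (the authors' deposited table), and their part in the DNMT1 value was not tested.

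UHRF1, UHRF2, TET1, TET2 and TET3 were in none of the 3 tables. No member was listed under a sample's label in more than 1 table, so genes of like pattern across tables could not be named.

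**Figure D1:**
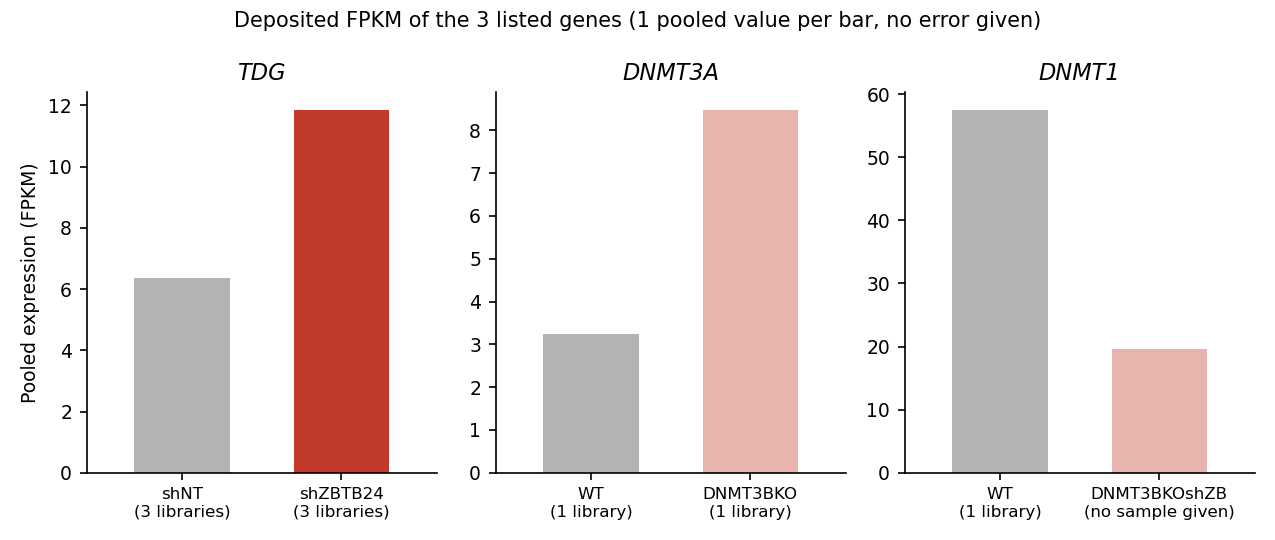
Each bar is a pooled FPKM value from the authors' deposited tables, on axes that start at 0, for the 3 members that were listed, with grey for the first group, dark red for a second group past a q under 0.05 and light red for one that is not. TDG stands at 6.36 and 11.8 FPKM, DNMT3A at 3.25 and 8.47 FPKM, and DNMT1 at 57.4 and 19.6 FPKM under a label without a sample, and no error bars can be drawn.

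FLAG-DNMT3B peaks lay in the bodies of 7 of the 8 genes and at the promoter of none. Promoter peaks were those centred no more than 1000 bp from any transcript start, and body peaks those centred within a transcript but beyond that distance from all starts. The merged list gave 15 peaks in member bodies, of which 6 belonged to DNMT1, 3 to UHRF1, 2 to TET3 and 1 each to TDG, DNMT3A, UHRF2 and TET2. TET1 had no peak. Where any overlapping base counted in place of the midpoint, 3 of the DNMT1 peaks and the TDG peak touched windows around internal starts of assembled transcripts, and 0 touched those around reference starts. Across 25529 gene names with 1 assembled locus, 22.3% had a DNMT3B peak in the body and 2.23% one at the promoter. Members are long genes, with a median span of 101766 bp against 18298 bp. Of the 11429 genes at least as long as TDG, the shortest member, 37.1% had a body peak and 3.73% a promoter peak. The median span of these longer genes was 61406 bp, still below that of the members, so the shares are not fully matched for length. The counts are set beside those shares as a description, since peaks were called on merged libraries and no spread between lines can be given.

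**Figure D2:**
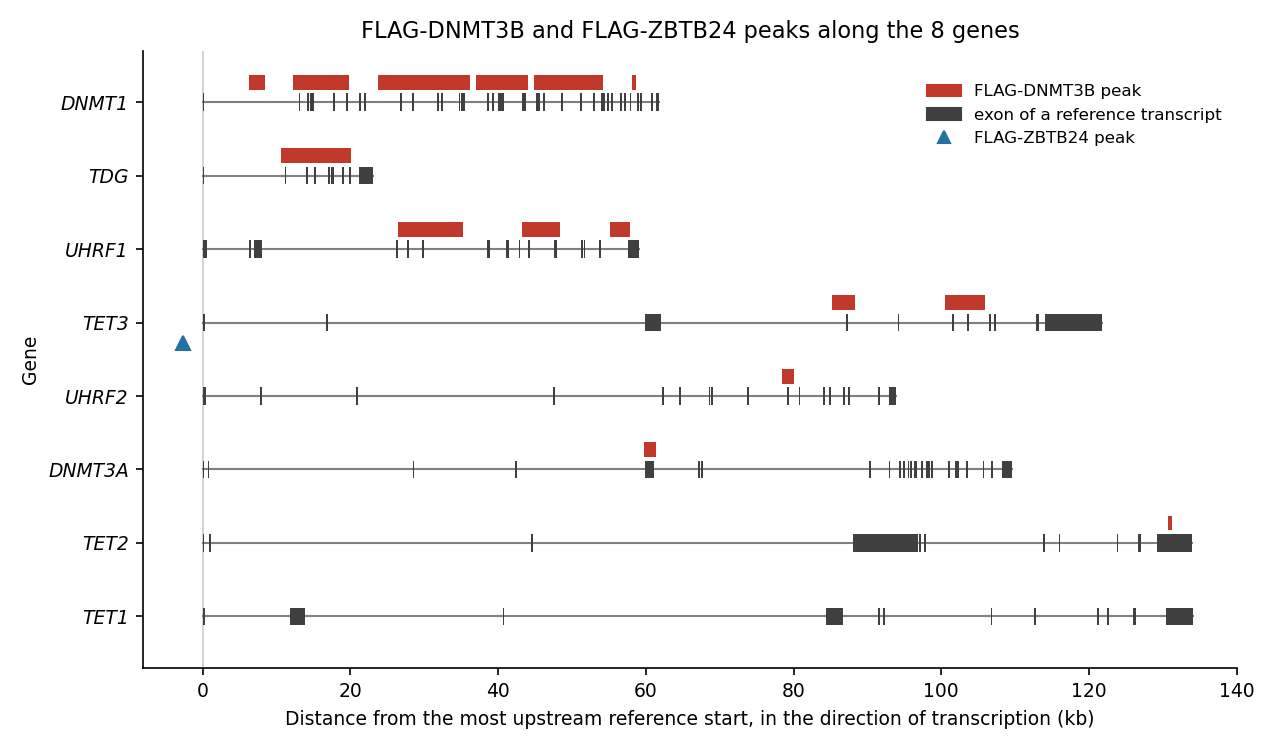
The map draws each gene from its most upstream reference start (0 kb) in the direction of transcription, with exons of reference transcripts as dark boxes, FLAG-DNMT3B peaks as red bars above and FLAG-ZBTB24 peaks as blue triangles below their gene. Red bars fill much of DNMT1, TDG and UHRF1, are single or paired in TET3, UHRF2, DNMT3A and TET2, and are missing from TET1, and the 1 triangle lies 2.63 kb upstream of TET3.

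The maintenance genes DNMT1 and UHRF1 carried broad stretches of DNMT3B peaks, and the related UHRF2 did not. The 6 DNMT1 peaks (hg19, minus strand) covered 39353 bp, which is 63.7% of the span of its reference transcripts (chr19:10244022-10305755) and 46.0% of the longer assembled locus (chr19:10244022-10329524). The widest of them, chr19:10269618-10282048, was 12.4 kb wide, wider than 96.9% of all 15909 peaks, and overlapped exons 10 to 17 of 41. Next to it lay chr19:10261672-10268740 over exons 18 to 24, chr19:10251505-10260851 over exons 25 to 32, and chr19:10285988-10293578 over exons 2 to 7. Both remaining peaks were narrower and intronic, at chr19:10297258-10299532 in intron 1 and at chr19:10247039-10247678 in intron 37. The 4 wide peaks thus touched 29 of the 41 exons, and the nearest peak edge lay 6.22 kb from the DNMT1 start. In UHRF1 (plus strand, chr19:4903092-4962165) 3 peaks covered 28.3% of the span. They lay at chr19:4929532-4938412 over exons 4 and 5, at chr19:4946354-4951472 over exons 11 to 13, and at chr19:4958242-4960955, which overlapped the last exon, 17. The first 26.4 kb of UHRF1 held no peak. In UHRF2 (plus strand, chr9:6413151-6507051) a single peak of 1613 bp, chr9:6491643-6493255, covered 1.72% of the span. It lay in intron 9 of the coding transcript NM_152896 and overlapped exon 10 of the non-coding transcript NR_046386.

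DNMT3A, the other de novo enzyme, had 1 narrow peak. It lay at chr2:25504024-25505703 on hg19, 59.8 kb from the start, overlapped exon 4 of 23 and covered 1.53% of the gene (minus strand, chr2:25455830-25565459).

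The 3 TET genes had little cover and TDG had much. TET1 (plus strand, chr10:70320117-70454239) had none over 134123 bp, and the nearest peak edge lay 63.9 kb from its start. TET2 (plus strand, chr4:106067032-106200960) had 1 peak of 535 bp, chr4:106197738-106198272, inside its last exon, 11, and covering 0.399% of the gene, and the antisense gene TET2-AS1 overlaps this locus. TET3 (plus strand, chr2:74212981-74335302) had a peak over exon 4, chr2:74298746-74301856, and a peak over exons 6 and 7, chr2:74314073-74319452, which together covered 6.94% of the gene. TDG (plus strand, chr12:104359593-104382656) had 1 peak of 9464 bp, chr12:104370182-104379645, which overlapped exons 2 to 9 of 10 and covered 41.0% of the gene. After DNMT1, TDG was the most covered member, and its first 10.6 kb were free of peaks. Any link between the cover of TDG and its rise after ZBTB24 knockdown was not tested. The TDG peak scored just under the list's median, so with only peaks at or above that median its cover was 0.

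Cover therefore differed widely among the 8 genes, from 0 in TET1 to 46.0% in DNMT1. Over all 25529 gene names the DNMT1 value stood at percentile 95.7, TDG at 94.8 and UHRF1 at 91.9, while TET3 stood at 82.5, UHRF2 at 78.1, DNMT3A at 77.9 and TET2 at 76.5. Against only the genes at least as long as TDG these percentiles were 94.8 for DNMT1, 93.5 for TDG and 89.5 for UHRF1, and between 62.7 and 74.8 for TET3, UHRF2, DNMT3A and TET2. Since only 22.3% of the gene names had a body peak, these percentiles mostly set genes with a peak apart from genes without one. Among all genes with a body peak, the median cover was 17.1%, which DNMT1, TDG and UHRF1 exceeded and the other 4 did not reach. The 90th percentile among genes with a body peak was 55.6%, and 53.0% for those at least as long as TDG. No member's cover of its assembled locus reached either value. At least 6 body peaks, the DNMT1 number, were seen in 2.32% of the gene names and in 5.19% of the genes at least as long as TDG. DNMT1 alone held 50.5% of the bases that DNMT3B peaks covered in the whole set.

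**Figure D3:**
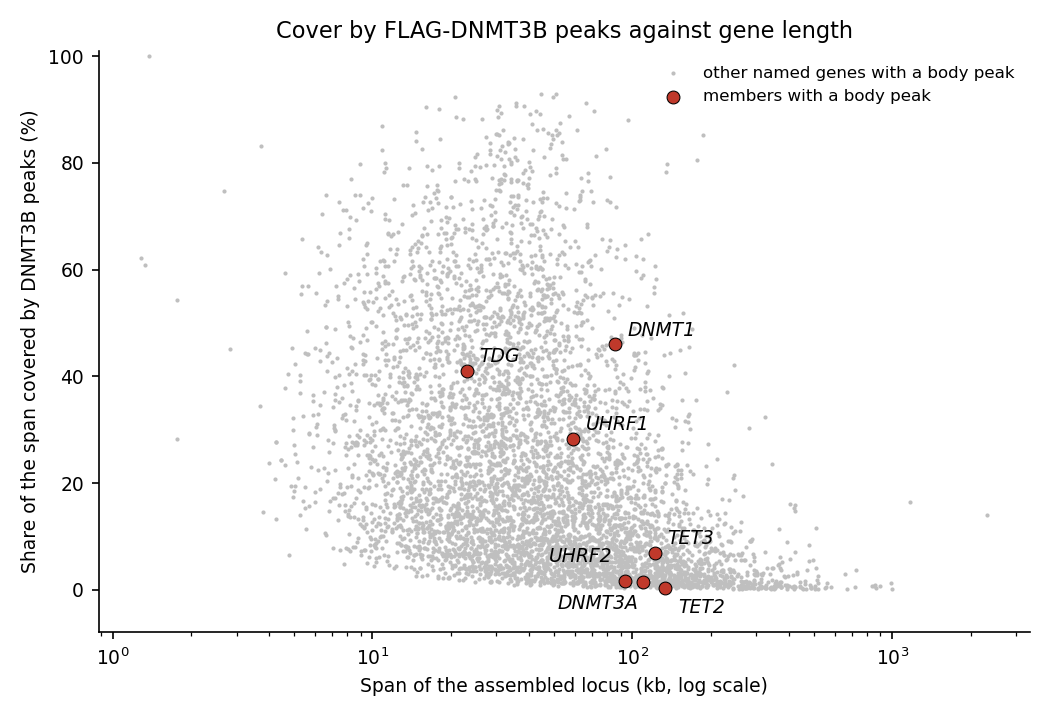
Each point is a gene with a DNMT3B body peak, with the span of its locus in kb on a log axis and the share of that span covered by peaks in percent, members in red and other genes in grey. DNMT1 at 46.0%, TDG at 41.0% and UHRF1 at 28.3% stand above the 4 other members, which lie between 0.399% and 6.94%, and TET1, at 0, is not drawn.

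The peaks in members varied in width by gene and were of middling score. The score is the authors' own value per peak, of a kind that the sources do not state. Peaks in members had a median width of 5119 bp, and 10 of the 15 were wider than the median of the whole list, 2482 bp. The wider ones lay in DNMT1, UHRF1, TET3 and TDG. The single peaks of DNMT3A, UHRF2 and TET2 were narrower than that median, at 1680, 1613 and 535 bp. Scores of the 15 ran from 3.20 to 3.80 within a list that ran from 2.18 to 5.41. Of these peaks 7 reached the list's median of 3.39. The highest score among them belonged to the exon 4 peak of TET3, number 1177 of 15909, followed by the exon 11 to 13 peak of UHRF1, number 1347, and the exon 18 to 24 peak of DNMT1, number 1576. The TDG peak, at 3.39, was number 8024, and the TET2 peak, at 3.23, number 12141. When each gene was divided into 3 equal parts, 2 midpoints lay in the first part, 5 in the middle and 8 in the last. Both in the first part were in DNMT1, and 9 of the 15 peaks were in DNMT1 or UHRF1. Peaks in other genes were not divided in this way, so the layout cannot be called particular to the members.

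**Figure D4:**
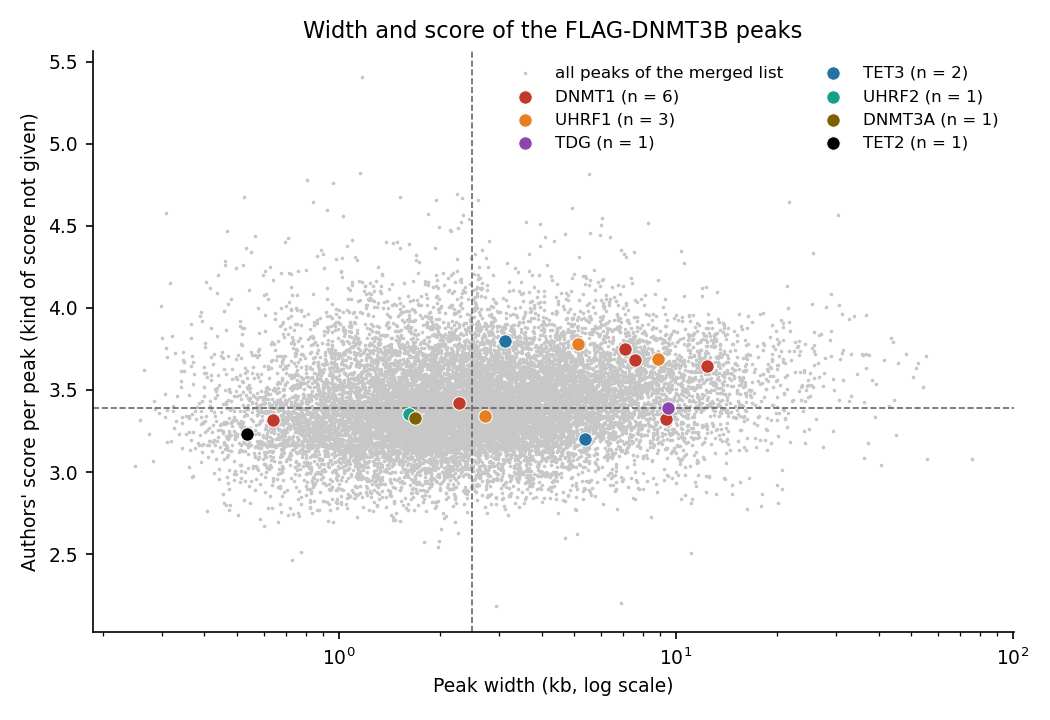
Each point is a FLAG-DNMT3B peak, with its width in kb on a log axis and the authors' score, all 15909 peaks in grey, members' peaks in color, and dashed lines at the medians of the list. The 15 member peaks span widths from 535 bp to 12.4 kb while their scores stay between 3.20 and 3.80.

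FLAG-ZBTB24 was not found at any of the 8 genes. No ZBTB24 peak lay at a member promoter, where 3.96% of gene names had one, or in a member body, where 5.17% did. Over genes at least as long as TDG these shares were 5.57% and 10.4%, so a count of 0 among 8 genes is near the background. The nearest peak was 2632 bp upstream of the TET3 reference start, at chr2:74210810-74210989 on hg19. Its score of 5.90 ranked 5470 of 6173 peaks. The assembled TET3 locus starts further upstream, at chr2:74212981, so the peak lay nearer to that start, though still beyond 2000 bp. For the other 7 genes the nearest ZBTB24 peak was 76.5 kb (TET2) to 330 kb (DNMT3A) from the reference start. For TDG it was 84.0 kb downstream of the start, at chr12:104443458-104443628.

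Neither factor had a peak at a member promoter. CpG content upstream of RefSeq starts is shown for the 3 members with an expression value and for TET1, the member without a DNMT3B peak. The sequences are the 250 bases upstream of the most upstream start in RefSeq (GRCh38.p14), 5′ to 3′ on the gene's strand, with CG pairs in capitals, for TDG (chr12:103965622-103965871, plus), DNMT1 (chr19:10194954-10195203, minus), DNMT3A (chr2:25342591-25342840, minus) and TET1 (chr10:68560087-68560336, plus). They were matched by symbol, since the peaks are on hg19, so these starts may differ from those used for the peaks.
TDG: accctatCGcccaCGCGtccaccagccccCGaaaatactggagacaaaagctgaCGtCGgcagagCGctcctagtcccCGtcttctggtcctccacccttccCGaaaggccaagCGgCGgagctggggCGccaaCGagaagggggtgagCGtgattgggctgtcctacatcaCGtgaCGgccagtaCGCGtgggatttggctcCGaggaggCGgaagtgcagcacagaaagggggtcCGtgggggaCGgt
DNMT1: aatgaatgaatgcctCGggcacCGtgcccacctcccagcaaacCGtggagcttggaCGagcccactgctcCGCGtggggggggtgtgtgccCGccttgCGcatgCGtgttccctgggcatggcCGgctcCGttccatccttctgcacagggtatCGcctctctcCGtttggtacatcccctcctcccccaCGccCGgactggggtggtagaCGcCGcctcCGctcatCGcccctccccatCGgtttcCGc
DNMT3A: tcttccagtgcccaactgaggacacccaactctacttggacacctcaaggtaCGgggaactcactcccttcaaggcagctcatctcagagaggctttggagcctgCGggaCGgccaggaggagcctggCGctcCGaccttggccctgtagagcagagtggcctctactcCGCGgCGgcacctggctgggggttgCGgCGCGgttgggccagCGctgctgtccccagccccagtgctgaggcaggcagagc
TET1: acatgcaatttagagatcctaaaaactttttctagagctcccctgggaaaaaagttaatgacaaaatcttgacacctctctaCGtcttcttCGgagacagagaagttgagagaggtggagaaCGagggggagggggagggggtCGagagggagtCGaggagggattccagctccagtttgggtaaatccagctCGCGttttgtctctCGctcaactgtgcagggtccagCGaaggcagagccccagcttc
TDG had 22 CG pairs in this window, DNMT1 21, DNMT3A 12 and TET1 9. All 8 members were matched, and the other counts were 37 for TET3, 28 for UHRF1, 23 for UHRF2 and 10 for TET2. Over 35116 promoters in the RefSeq table the median was 11 pairs, with quartiles at 3 and 23. The motif searched was CG, which reads alike on both strands. TET1 and TET2 thus fell just under the median, DNMT3A just over it, and the other 5 between it and percentile 96.0, which TET3 reached.

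The neighbouring steps of the pathway were followed with 5 lists of 57 genes in all, which share no gene with the 8 members. After the knockdown 11 were listed, 8 higher and 3 lower, of which 1 rose and 1 fell past the threshold. Of all 1965 listed loci, 1081 were higher, and 12.2% were called as rises and 9.82% as falls. The called counts among the 11 are near those shares. The median log2 fold change of the 11 was 0.60, beside 0.55 over all listed loci. In the authors' deposited table PCNA, the sliding clamp of the replication fork that also tethers DNMT1, rose from 53.9 to 104 FPKM (log2 fold change 0.95, q = 0.0221, 3 against 3 libraries). In the same comparison of the authors' deposited table NEIL2, a glycosylase of base excision repair, fell from 12.8 to 6.87 FPKM (log2 fold change -0.90, q = 0.0456). The uracil glycosylase genes SMUG1 and UNG had higher values without passing, with log2 fold changes of 0.83 and 0.58 in the authors' deposited table. MBD2, which binds methylated CpG, was at 35.7 and 51.0 FPKM (q = 0.288), and TRIM28, a corepressor, at 108 and 71.4 FPKM (q = 0.135) in the authors' deposited table. All 11 had an unadjusted p under 0.05, as did 97% of the listed loci.

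With FLAG-ZBTB24 the same lists had 5 loci in the table, all higher. Over all 1754 listed loci the median log2 fold change was -0.51 and 0.57% passed the threshold. Of the 5 loci 1 passed, the locus that ZBTB24, the gene added in these lines, shares with its neighbour MICAL1. The other pathway loci included the cytidine deaminase genes APOBEC3G and APOBEC3F. In the authors' deposited table APOBEC3G was at 12.2 and 27.9 FPKM (q = 0.345) and APOBEC3F at 10.4 and 19.6 FPKM (q = 0.462). In the knockout library 4 loci were listed, all of deaminase or GADD45 genes, and none passed the threshold or an unadjusted p of 0.05. The authors' deposited table had APOBEC3F at 3.50 and 11.1 FPKM there. Under the label DNMT3BKOshZB 7 were listed, all lower and none past the threshold or an unadjusted p of 0.05, including PARP1 at 82.7 and 29.9 FPKM, a sensor of DNA strand breaks, and AHCY at 232 and 95.3 FPKM, which clears the product of the methyl donor, in the authors' deposited table. DNMT1 lay among these in size, with log2 fold changes from -1.06 for MAT2A to -1.71 for DNMT3B.

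**Figure D5:**
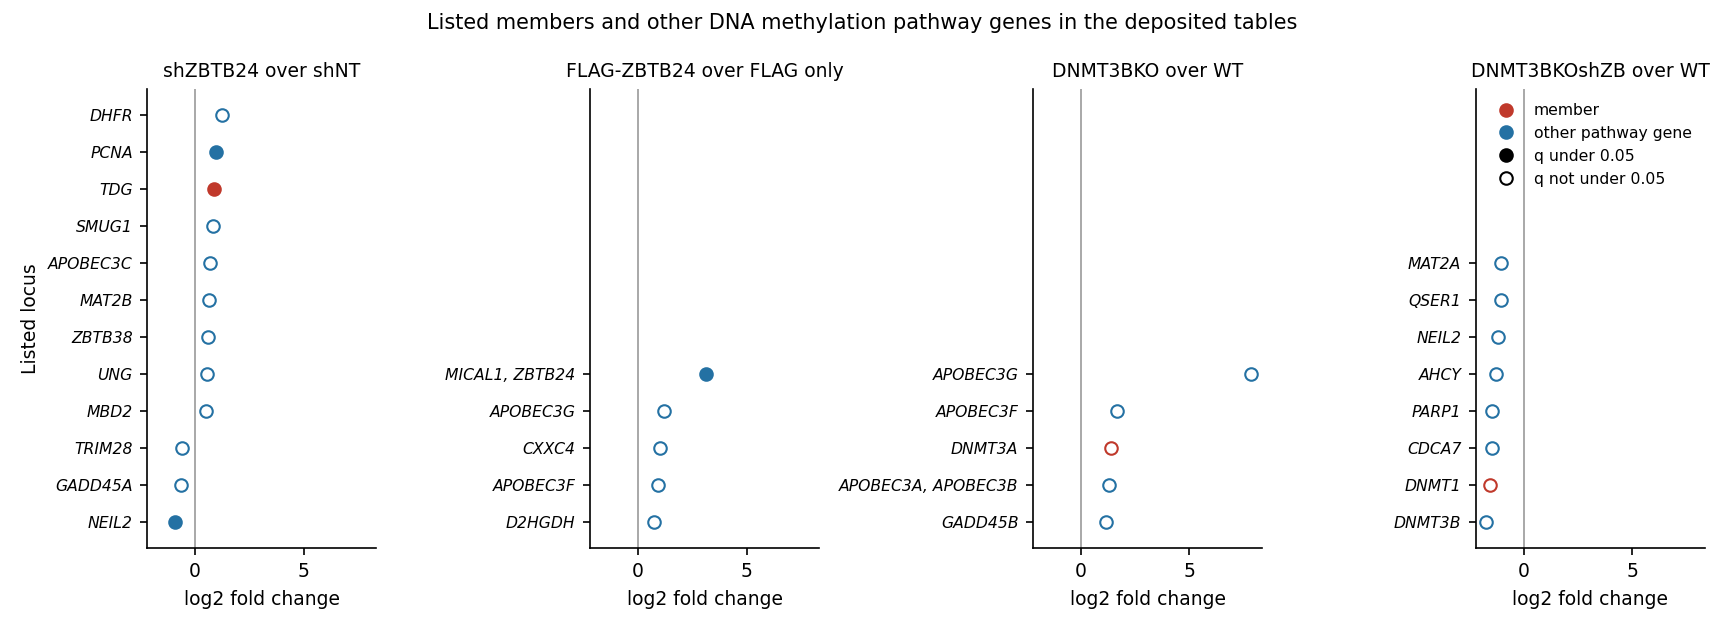
Each circle is a locus listed in the authors' deposited tables, placed by log2 fold change with the control or wild-type group as the base, with members in red, other pathway genes in blue and filled circles for a q under 0.05. Filled circles are TDG, PCNA and NEIL2 for the knockdown and the locus of MICAL1 and ZBTB24 for FLAG-ZBTB24, and the panels on the knockout table hold open circles only.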

How the data were processed

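HCT116 RNA-seq and FLAG ChIP-seq were analysed from the deposited tables, grouped by sample title. MACS2, Cufflinks, HISAT2 and StringTie are named in the submitters' processing notes without versions, as is hg19. The authors deposited pooled FPKM values per group, log2 fold changes with the control group as the base, a test statistic (a score), and p-value and q-value per locus. Per the file headers of the expression tables these columns hold no library, so the authors' q was used and no test was run. The authors deposited 1 merged peak list per factor with a score per peak. Columns left without a group numbered 0.

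Genes were looked up by symbol in comma-separated names. Cover is the share of bases between the outer ends of a gene's transcripts that lie under peaks. All transcripts of the assembled locus counted, and the background took gene names with 1 uninterrupted locus. Peak assignment was tested on simulated data. Python 3.11.15, pandas 2.3.3 and matplotlib 3.10.9 were used. All 8 members and any pathway gene past q under 0.05 are named, others as examples. Members and lists were chosen with earlier results of these data known. Alternatives are in the closing section. Rows labelled DNMT3BKOshZB match no sample given, were kept out of the knockout comparison, and are printed under that label as the authors' values against wild type.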

Additional observations from a re-analysis of the deposited data

How the results depend on the processing

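No paired analysis was possible because the deposited columns hold 1 pooled value per group, and for the same reason no replicate could be left out. The count of called members stayed at 1 for the knockdown, 0 for FLAG-ZBTB24 and 0 for the knockout under each alternative run: an unadjusted p under 0.05, a q under 0.1, at least 1 FPKM in either group, single-gene loci and, for the knockout at a q under 0.05, rows of both labels. The first 4 used only the knockout's label, and both labels with an unadjusted p were not run together, where DNMT1 would count by its deposited p. For FLAG-ZBTB24 the count of 0 was fixed in advance, since no member was listed. The knockdown and the knockout's label each listed 1 member, so neither count could exceed 1. The unchanged counts therefore say little about how firm the calls are. With a pseudocount of 0.1 FPKM the log2 fold change was 0.89 for TDG and 1.36 for DNMT3A, and with 1 FPKM it was 0.80 for TDG, 1.16 for DNMT3A and -1.50 for DNMT1. ZBTB24 peaks at members numbered 0 at promoters and in bodies under all 5 peak alternatives. DNMT3B promoter peaks rose from 0 to 1 with a window of 2000 bp (TDG) and to 4 where any overlapping base counted (3 in DNMT1, 1 in TDG), all at internal starts of assembled transcripts and 0 at reference starts. With only peaks at or above the median score, DNMT3B body peaks fell from 15 to 7 and cover was 34.3% for DNMT1, 23.7% for UHRF1, 2.54% for TET3 and 0 for DNMT3A, UHRF2, TET2 and TDG, so the TDG cover rests on a peak just under that median. On reference transcripts cover was 63.7% for DNMT1 and 6.97% for TET3. The share of genes with a body peak was 22.3%, and 37.1% for genes at least as long as TDG, an alternative chosen after seeing the data. The unknown depth limits all FPKM values.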

Other observations

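Some of the genes that act beside the 8 members also carried DNMT3B peaks in their bodies, and others did not. Of 56 pathway genes with 1 assembled locus, 27 (48.2%) had a DNMT3B body peak and 0 a promoter peak, beside 22.3% and 2.23% of all gene names. These shares were not matched for gene length, and among genes at least as long as TDG 37.1% had a body peak. The share was 9 of 13 for the partners of methylation, 6 of 11 for base excision repair, 7 of 11 for cofactor supply, 5 of 12 for CpG readers and 0 of 9 for deaminase and GADD45 genes, whose spans run from 1543 to 15303 bp. DNMT3B peaks covered 92.4% of the ZBTB24 locus, 85.6% of PARP1, 50.8% of DNMT3B itself and 22.9% of HELLS, which encodes a chromatin remodeller. Reads from the lentiviral copy of a FLAG factor cannot be told apart here from reads of the cells' own gene, which limits the DNMT3B value. Other genes with a body peak had little cover, such as BEND3 with 1.66%, MBD2 with 0.974% and ZBTB38 with 0.612%. ZBTB24 promoter peaks were found at 3 of these 56 genes, ZBTB24, CDCA7 and APOBEC3C, beside 3.96% of all gene names.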
